A study of Bos taurus with 60 samples.

Results

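The miR-424/miR-450 cluster is a group of small hairpin genes on the bovine X chromosome, and 5 of the 1030 known mature miRNAs in the liver libraries of 60 steers were examined as its members, namely bta-miR-424-5p, bta-miR-424-3p, bta-miR-450a, bta-miR-450b and bta-miR-542-5p. The members were taken by name. They had been selected on their correlation across these steers and on the opposite direction of their residual feed intake (RFI) difference in Charolais and Kinsella Composite (KC) steers, so both of those patterns are given below as descriptions without a test. RFI is the difference between the feed an animal eats and the feed predicted from its size and growth, and a low-RFI animal is the more efficient one.

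Each breed, Angus, Charolais and KC, contributed 20 steers, of which 6 were labelled low-RFI, 6 high-RFI and 8 carried no RFI label. All were castrated males raised on one ranch and finished on a diet of barley grain, barley silage and a rumensin pellet, which the RFI groups shared, and KC is a composite population bred from Angus, Charolais and hybrid lines. The study's mean slaughter age differed between breeds and was lowest in KC, so breed cannot be told apart from age. Within KC it was higher in low-RFI than in high-RFI steers, a difference the study did not call significant. Steers of a breed were partly half-sibs, with 7 sires in Angus, 5 in Charolais and 11 sire labels in KC, and each library came from the liver of a single steer. The libraries held between 1930858 and 6759381 miRNA counts with a median of 4390274, and the KC libraries were the deepest, with a median of 5547017 against 3720336 in Angus. The hepatocyte miRNAs bta-miR-122, bta-miR-885 and bta-miR-192 summed to between 180800 and 354500 CPM, the count relative to a library of 1e+06 counts, in every library. Levels below are CPM scaled by the trimmed mean of M-values (TMM) over all 60 libraries, and 3 counts in a library corresponded to between 0.444 and 1.554 CPM.

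As background, a miRNA hairpin is cut into a 5p and a 3p strand, of which one is usually kept, and the kept strand recognises messenger RNAs mainly through its seed. Human miR-424 (miR-322 in rodents) and miR-503 are made from one primary transcript, and miR-424-5p carries the seed of the miR-15/16 family, which is known for restraining cell-cycle genes such as those of the D and E cyclins. miR-450a, miR-450b and miR-542 lie next to that pair in mammals. In the RefSeq annotation of the ARS-UCD2.0 assembly, the bovine genes stand on chromosome X in the order MIR450B, MIR450A-1, MIR450A-2, MIR542, MIR3601, MIR503 and MIR424, with HPRT1 before them and PLAC1 after them. The counts were made on the older UMD3.1 build, so no coordinates are given.

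The mature sequences of the members, their neighbour and relatives of bta-miR-424-5p are shown to set apart nearness in the genome from likeness in sequence. Capitals mark the seed, bases 2 to 8 counted from the 5′ end, and the sequences are those of the study's list of expressed miRNAs.
bta-miR-424-5p: cAGCAGCAauucauguuuuga
bta-miR-424-3p: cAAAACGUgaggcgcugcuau
bta-miR-450a: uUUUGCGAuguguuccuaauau
bta-miR-450b: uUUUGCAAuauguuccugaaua
bta-miR-542-5p: uCGGGGAUcaucaugucacgag
bta-miR-503-3p: gGAGUAUUguuucugcugcccgg
bta-miR-15a: uAGCAGCAcauaaugguuugu
bta-miR-16a: uAGCAGCAcguaaauauuggug
The 5 members had 5 different seeds. bta-miR-424-5p shared its seed with 6 other miRNAs of the list, among them bta-miR-15a and bta-miR-16a, which are printed for that reason, but differed from its nearest relative bta-miR-15a at 6 aligned bases. bta-miR-450a and bta-miR-450b, both 22 bases long, also differed at 6 positions, and one of these, G7A counted from the 5′ end of bta-miR-450a, lies inside the seed. No member came within 1 mismatch of another listed miRNA, and bta-miR-503-3p is shown as the neighbour encoded between the miR-542 and miR-424 hairpins.

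bta-miR-450b was the most abundant member and bta-miR-424-3p and bta-miR-542-5p were close to the limit of detection. On the CPM scale bta-miR-450b ran from 75.2 to 260 over the 60 steers with a median of 145, which put it at rank 95 of the 397 miRNAs tested for breed. bta-miR-450a ran from 17.4 to 61.1 with a median of 32.6, and every steer had more bta-miR-450b than bta-miR-450a. bta-miR-424-5p, the strand with the miR-15/16 seed, ran from 7.30 to 74.9 CPM with a median of 15.4 and was below bta-miR-450a in 58 of 60 steers, although the ranges overlapped.

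bta-miR-542-5p had a median of 1.92 CPM, with a lowest value of 0.467 and a highest of 4.04. bta-miR-424-3p, the opposite strand of bta-miR-424-5p, had a median of 1.44 CPM between 0 and 5.21. These levels correspond to medians of 8 and 6 counts, 13 of 60 libraries held 3 or fewer counts of bta-miR-424-3p, and the order of these 2 members was not resolved, since bta-miR-542-5p was the higher one in only 33 of 60 steers.

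Within the locus, bta-miR-450b supplied 73.3% ± 3.11 (SD, n = 60 steers) of the counts of the 5 members and bta-miR-450a 16.6% ± 2.17. bta-miR-424-5p supplied 8.30% ± 2.49, bta-miR-542-5p 1.04% ± 0.444 and bta-miR-424-3p 0.840% ± 0.455. The neighbour miR-503 was barely detected: bta-miR-503-3p reached at most 8 counts in a library, and bta-miR-503-5p was at 0 in 44 of 60 libraries and never exceeded 2 counts. Neither passed the abundance filter. No row for bta-miR-542-3p was used here.

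The members differed in how far their spread between steers exceeded counting error. Within a breed, the variance of the bta-miR-450b counts around the depth of their libraries was 26.3 times the counting variance in Angus, 46.1 times in Charolais and 60.6 times in KC. For bta-miR-424-5p it was 5.18 times in Angus, 2.18 in Charolais and 65.9 in KC, where KC low-RFI replicate 3 described below is included, and for bta-miR-424-3p 2.79, 1.90 and 4.98 times. For bta-miR-542-5p the same ratio was only 1.78, 1.83 and 1.36, so counting error made up a large part of its spread, as it did for the miR-424 strands in Charolais. In bulk liver, a lower level of a miRNA in the cells that make it and fewer such cells cannot be told apart.

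**Figure D1:**
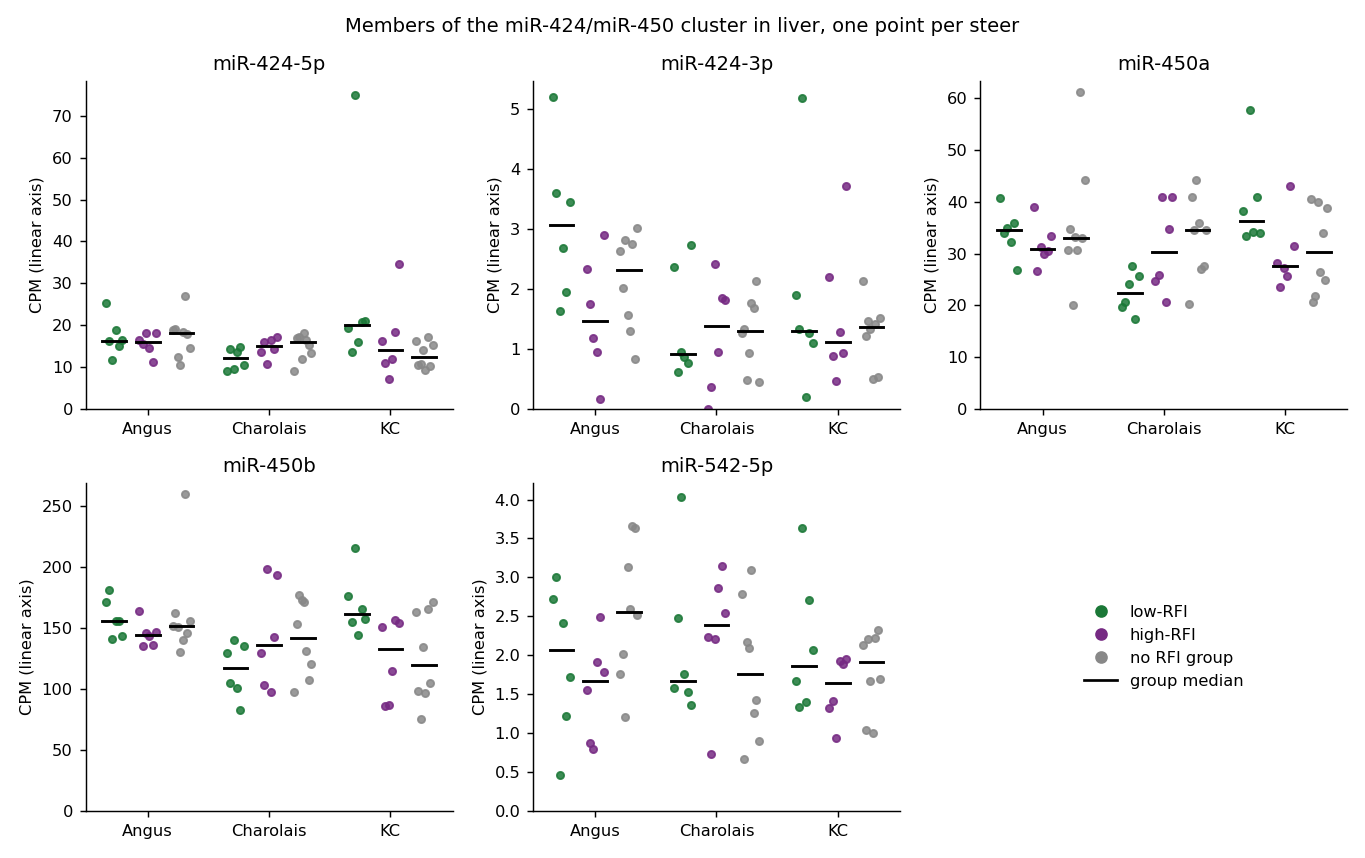
CPM (TMM-scaled, linear axes starting at 0) of each member in every steer, by breed and RFI label, with a black bar at the group median. KC low-RFI replicate 3 stands above the other KC steers for all 5 members, at 74.9 CPM for miR-424-5p, and an unlabelled Angus steer is highest for miR-450a and miR-450b, at 61.1 and 260 CPM.

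One library stood apart before any comparison was made. KC low-RFI replicate 3 held 433 counts of bta-miR-424-5p, or 74.9 CPM, against a median of 15.2 and a highest value of 34.5 CPM among the other 19 KC steers. It also ranked first of the 20 KC steers for the other 4 members, with 5.19 CPM of bta-miR-424-3p, 57.8 of bta-miR-450a, 215 of bta-miR-450b and 3.63 of bta-miR-542-5p. Against the median of the other 19 steers this was 4.93-fold for bta-miR-424-5p and 4.05-fold for bta-miR-424-3p, but 1.73-fold for bta-miR-450a and 1.42-fold for bta-miR-450b, so bta-miR-424-5p made up 21.0% of the locus counts in this steer, the highest share of all 60.

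The next highest share was 15.3%, in KC high-RFI replicate 6, the steer with 34.5 CPM of bta-miR-424-5p. In KC low-RFI replicate 3 the 6 detected miR-15/16 family miRNAs that share the bta-miR-424-5p seed summed to 1910 CPM, which ranked 13th of 20. Its summed leukocyte miRNAs, at 4073 CPM, ranked 11th, its mesenchymal or stellate miRNAs, at 203500 CPM, ranked 4th, and its hepatocyte miRNAs, at 205300 CPM, were the lowest of the 20, although the sums of the last lists are mostly bta-miR-143 and bta-miR-192. Whether cell composition had a part in the level of the members in this steer was not tested. This library ranked first in KC for 23 of 397 miRNAs, which is close to an equal share among the 20 KC libraries. Results that rest on it are given with and without it.

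The 5 members rose and fell together across steers, which is one of the patterns they were selected on. With breed means subtracted, Spearman's rho over the 60 steers was above 0 for 10 of 10 member pairs, with a median of 0.296 (median Pearson's r 0.353), while the median over all 78606 pairs of the 397 miRNAs was 0.004. The closest pair was bta-miR-450a with bta-miR-450b, at a rho of 0.793 and an r of 0.809. bta-miR-424-5p followed bta-miR-450b with a rho of 0.531 and an r of 0.574, and bta-miR-450a with a rho of 0.494 and an r of 0.536.

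bta-miR-424-3p followed bta-miR-450b with a rho of 0.474 and an r of 0.390, but its own opposite strand bta-miR-424-5p with a rho of 0.279 and an r of 0.391. The pairs with bta-miR-542-5p lay between 0.165 and 0.312 in rho. bta-miR-424-3p and bta-miR-542-5p were sparse, and all values share the library and its scaling.

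The strength of the correlation differed by breed as a description. In KC, rho ranged from 0.326 to 0.812 over the 10 pairs with a median of 0.547, and it was 0.471 in the median without KC low-RFI replicate 3. In Angus the median rho was 0.314 (range 0.110 to 0.644). In Charolais the median was 0.161 and 7 of 10 pairs were above 0. There bta-miR-450a and bta-miR-450b remained close, at 0.755, but bta-miR-424-5p showed a rho of 0.214 with bta-miR-450b and of -0.119 with bta-miR-424-3p. In the 24 steers without an RFI label the median was 0.208, with 9 of 10 pairs above 0. The difference between breeds in these correlations was not tested.

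Beyond the members, the miRNAs whose level over the 60 steers most resembled the mean standardised level of the members, after subtracting breed means, were bta-miR-136 (rho 0.444, r 0.443), bta-miR-224 (rho 0.435, r 0.479) and bta-miR-154c (rho 0.422, r 0.413). At the other end stood bta-miR-122, a hepatocyte miRNA, with a rho of -0.435 and an r of -0.400. These values changed to 0.423, 0.408, 0.400 and -0.414 without KC low-RFI replicate 3. They are the extremes of 392 miRNAs and are given as descriptions.

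Breed was the comparison that the selection of the members did not use, and it asked whether the locus differed in level between Angus, Charolais and KC liver. No member was called as different between breeds at an adjusted p below 0.05 (edgeR quasi-likelihood test over 397 miRNAs, Benjamini-Hochberg), where 19.4% of all miRNAs were. DESeq2 and the edgeR likelihood-ratio test also called 0 of 5, and 1 of 5 had an unadjusted p below 0.05. That member was bta-miR-424-3p, with a joint adjusted p of 0.111. Its median was 2.17 CPM in Angus (lowest 0.166, highest 5.21), 1.11 in Charolais (0 to 2.73) and 1.31 in KC (0.200 to 5.19), so the ranges overlapped although Angus was highest in the median.

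bta-miR-424-3p was lower in Charolais than in Angus by a log2 fold change of -0.75 ± 0.29 (SE, n = 20 a breed, edgeR adjusted p = 0.123) and in KC than in Angus by -0.48 ± 0.27 (adjusted p = 0.247). Without KC low-RFI replicate 3, a choice made after its values were seen, the joint test for bta-miR-424-3p gave an edgeR adjusted p of 0.0449 and so passed the threshold, with -0.76 for Charolais against Angus and -0.68 for KC against Angus. This call therefore depended on 1 steer.

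bta-miR-424-5p had medians of 16.5 CPM in Angus (10.7 to 26.9), 14.2 in Charolais (9.06 to 18.2) and 15.6 in KC (7.30 to 74.9). KC exceeded Charolais by 0.41 ± 0.17 on the log2 scale (edgeR adjusted p = 0.0993), and this fell to 0.16 without KC low-RFI replicate 3. It was 0.70 in the 36 steers with an RFI label, where the edgeR adjusted p of 0.0378 passed the threshold and that steer was included, and -0.19 in the 24 steers without a label. The medians themselves differed by less than the spread between steers of one breed.

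bta-miR-450b had medians of 149 CPM in Angus (130 to 260), 130 in Charolais (82.5 to 199) and 153 in KC (75.2 to 215). Its log2 fold change was -0.21 ± 0.11 for Charolais against Angus (edgeR adjusted p = 0.265) and -0.17 ± 0.11 for KC against Angus (adjusted p = 0.320). bta-miR-450a gave -0.21 ± 0.12 and -0.04 ± 0.11, with adjusted p-values of 0.311 and 0.893. For bta-miR-542-5p the values were -0.02 ± 0.20 and -0.17 ± 0.19, and its joint adjusted p was 0.776.

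Pair by pair, 0 of 5 members were called for Charolais against Angus, where 3.02% of the 397 miRNAs were, and 2 had an unadjusted p below 0.05, bta-miR-424-3p and bta-miR-450b. For KC against Angus 0 of 5 were called by edgeR against 12.8% of all miRNAs, with 0 at an unadjusted p below 0.05, and for KC against Charolais 0 of 5 against 16.6%, with 1, bta-miR-424-5p. DESeq2 called none of the 5 in any of these pairs. All 5 members had a log2 fold change below 0 for Charolais against Angus, with a median of -0.21. Over all 397 miRNAs the median was -0.02 and 47.9% were above 0. The members were selected for their correlation, so their directions are not separate observations. The KC libraries were deeper than the others, and thinning all libraries to the lowest total left the count of called members at 0.

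**Figure D2:**
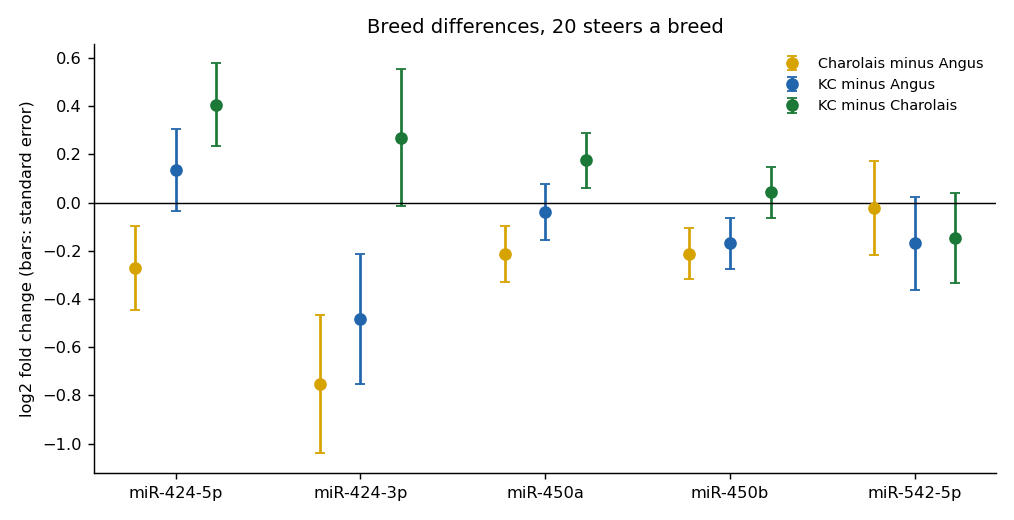
Log2 fold changes between breeds of the 5 members from the edgeR fit on 60 steers, with standard errors as bars. The largest distances from 0 are those of miR-424-3p, at -0.75 for Charolais minus Angus, and of miR-424-5p, at 0.41 for KC minus Charolais, and no member passed the adjusted threshold.

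Ratios inside the locus do not depend on the scaling of the libraries and were compared between breeds. bta-miR-424-5p exceeded its opposite strand in every steer, by a median of 6.76-fold in Angus, 10.4-fold in Charolais and 10.7-fold in KC. The lowest of the 60 ratios was 3.62, in a Charolais steer. One Charolais high-RFI library held 43 counts of bta-miR-424-5p and 0 of bta-miR-424-3p, which with a floor of 3 counts in the library means at least 14.3-fold. The mean log2 ratio was 3.02 ± 0.85 (SD, n = 20) in Angus, 3.56 ± 1.14 in Charolais, and 3.58 ± 0.68 for the KC steers. These lay 0.56 ± 0.24 (SE) above Angus, with a two-sided permutation p of 0.0254 and an adjusted p of 0.0775 over 6 comparisons, and Charolais lay 0.54 ± 0.32 above Angus, with an adjusted permutation p of 0.141.

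With one mean value per sire, the KC and Angus difference in the strand ratio was 0.62 and its adjusted exact permutation p was 0.0207. This used 11 sire labels in KC, one of which may stand for unknown sires, and 7 in Angus. The higher ratio in KC and Charolais goes with the lower median of bta-miR-424-3p there, a member that 3 or fewer counts represented in 3 Angus, 6 Charolais and 4 KC libraries.

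bta-miR-450b exceeded bta-miR-450a by a median of 4.50-fold in Angus, 4.74-fold in Charolais and 4.20-fold in KC. The mean log2 ratio in KC was 2.05 ± 0.21, lower than in Angus by -0.15 ± 0.07 (SE) and than in Charolais by -0.15 ± 0.07, each with an adjusted permutation p of 0.0775. With one mean value per sire these differences were -0.07 and -0.05, with adjusted exact permutation p-values of 0.557 and 0.703. Of the 6 comparisons over steers, 3 had an unadjusted permutation p below 0.05 and none passed after adjustment. The ratio of these neighbours was tight within a breed, with an SD between 0.21 and 0.23 on the log2 scale, whereas that of the miR-424 strands had an SD of up to 1.14.

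**Figure D3:**
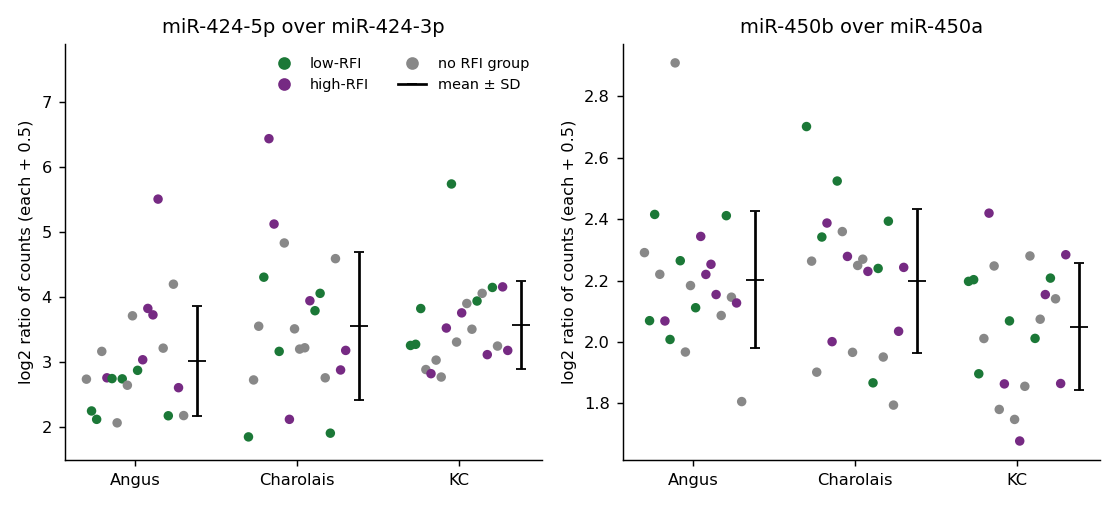
Log2 ratio of counts, each with 0.5 added, in every steer by breed, for the strands of miR-424 (left) and for miR-450b over miR-450a (right), coloured by RFI label, with the mean and SD beside each breed. The highest Charolais point on the left is the library with 0 counts of miR-424-3p, placed by the added 0.5. The left axis runs from about 1.5 to 8 and the right one covers a much narrower span, so the neighbour ratio is the tighter of the pair.

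The low-RFI and high-RFI steers of Charolais and KC differed in opposite directions for the members that could be compared, as the selection of the members requires, and no test is attached to these values. In Charolais, bta-miR-450a had a median of 22.4 CPM in the 6 low-RFI steers (17.4 to 27.6) and 30.3 in the 6 high-RFI steers (20.7 to 40.9). No low-RFI steer exceeded the high-RFI median, and 3 high-RFI steers lay above all low-RFI steers, so the groups overlapped in part. The fitted log2 fold change, low-RFI minus high-RFI, was -0.52.

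bta-miR-450b in Charolais had medians of 117 CPM in low-RFI (82.5 to 141) and 136 in high-RFI steers (97.7 to 199), a log2 fold change of -0.36. bta-miR-424-5p had medians of 12.1 (9.06 to 14.8) and 15.1 CPM (10.9 to 17.3), a log2 fold change of -0.33. Both groups overlapped for these members too, and the low-RFI steer was the higher one in 6 of 36 pairs for bta-miR-424-5p and in 11 of 36 for bta-miR-450b. bta-miR-542-5p was at -0.11, and leaving out 1 steer moved it between -0.35 and 0.02. bta-miR-424-3p did not reach the abundance filter in the 12 Charolais steers, with medians of 0.914 CPM in low-RFI and 1.39 in high-RFI steers and one high-RFI library at 0.

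In KC the direction was the reverse. bta-miR-450b had a median of 161 CPM in low-RFI steers (144 to 215) and 133 in high-RFI steers (85.9 to 157), a log2 fold change of 0.44. Each of the 6 low-RFI values exceeded the high-RFI median and 4 exceeded every high-RFI value. bta-miR-450a had medians of 36.2 (33.5 to 57.8) and 27.7 CPM (23.6 to 43.1), a log2 fold change of 0.41. 5 of the 6 high-RFI steers lay below all low-RFI steers.

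bta-miR-424-5p in KC had medians of 20.1 CPM in low-RFI (13.7 to 74.9) and 14.1 in high-RFI steers (7.30 to 34.5), and its fitted log2 fold change was 0.74. Without KC low-RFI replicate 3, the highest low-RFI steer was at 21.1 CPM and the fold change was 0.12 on the log2 scale. The same step changed bta-miR-450b to 0.34, bta-miR-450a to 0.26, bta-miR-542-5p from 0.46 to 0.23, and bta-miR-424-3p from 0.24 to -0.44. The size of the KC fold changes of the miR-424 strands thus depended strongly on 1 steer, and bta-miR-424-3p changed sign. Leaving out KC high-RFI replicate 6 instead, at 34.5 CPM, raised bta-miR-424-5p to 1.055. For bta-miR-424-5p, 5 of 6 low-RFI steers lay above the high-RFI median, and the low-RFI steer was the higher one in 27 of 36 pairs. The fold changes of bta-miR-450a and bta-miR-450b stayed at or above 0.26 with any 1 steer left out.

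The largest half-sib family was unevenly spread over the RFI groups, with 1 low-RFI and 3 high-RFI steers in KC and 1 and 4 in Charolais. Among the KC steers of other sires, the mean of bta-miR-450b was 174 CPM in 5 low-RFI steers and 142 in 3 high-RFI steers, and within the family it was 144 in 1 low-RFI and 108 in 3 high-RFI steers. In Charolais its means were 113 CPM in 5 low-RFI and 168 in 2 high-RFI steers of other sires, and 129 in 1 and 132 in 4 within the family. The order of the RFI groups was the same inside and outside the family for bta-miR-450b, though within the Charolais family the means were close. bta-miR-424-5p, bta-miR-450a and bta-miR-542-5p also kept their order, with KC low-RFI replicate 3 included. For bta-miR-424-5p in KC steers of other sires, the means were 30.0 CPM in low-RFI and 21.7 in high-RFI steers. The low-RFI mean includes replicate 3 at 74.9 CPM, and the remaining low-RFI steers, from 13.7 to 21.1, each lay below the high-RFI mean. That high-RFI mean includes KC high-RFI replicate 6 at 34.5 CPM. For bta-miR-424-3p, near the limit of detection, the order reversed. Its low-RFI and high-RFI means in Charolais were 1.19 and 1.83 CPM for other sires, and 2.36 and 0.933 within the family. In KC they were 2.16 and 1.98, and 0.200 and 1.18. Each family value for low-RFI is 1 steer. The part of the family in the RFI differences was not tested.

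The RFI difference in Angus was not part of the selection rule and was tested, although the Angus steers entered the correlations. The members were, however, proposed with the Angus results in view. The study had already listed bta-miR-424-3p as higher in low-RFI Angus steers, so the values below are not an independent test of it. bta-miR-424-3p was at a median of 3.07 CPM in low-RFI steers (1.64 to 5.21) and 1.47 in high-RFI steers (0.166 to 2.90). Each of the 6 low-RFI values exceeded the high-RFI median and 3 exceeded every high-RFI value, but the counts behind this were 7 to 21 in low-RFI and 1 to 13 in high-RFI libraries. The log2 fold change was 1.03 ± 0.44 (SE, edgeR unadjusted p = 0.0311, adjusted p = 0.969).

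By the study's rule of an unadjusted p below 0.05 and a fold change above 1.5, bta-miR-424-3p was the 1 member of 5 called, where 2.41% of 373 miRNAs were, and this was a result known when the comparison was planned. After adjustment edgeR called 0 of 5 members and 0% of all miRNAs, and DESeq2 also called 0 of 5. The difference missed the unadjusted threshold when any of 6 steers was left out, namely low-RFI replicate 1, 2 or 6 or high-RFI replicate 3, 4 or 5. In those 6 fits the log2 fold change was between 0.70 and 0.98.

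The other members were not called between the Angus groups. bta-miR-450b had medians of 156 CPM in low-RFI (141 to 181) and 145 in high-RFI steers (135 to 164), with a log2 fold change of 0.14 ± 0.09. bta-miR-424-5p was at 0.15 ± 0.18, bta-miR-450a at 0.12 ± 0.13 and bta-miR-542-5p at 0.26 ± 0.40, and the edgeR adjusted p was 0.969 for each. The log2 ratio of the miR-424 strands was 2.49 ± 0.34 (SD, n = 6) in low-RFI and 3.58 ± 1.07 in high-RFI Angus steers.

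**Figure D4:**
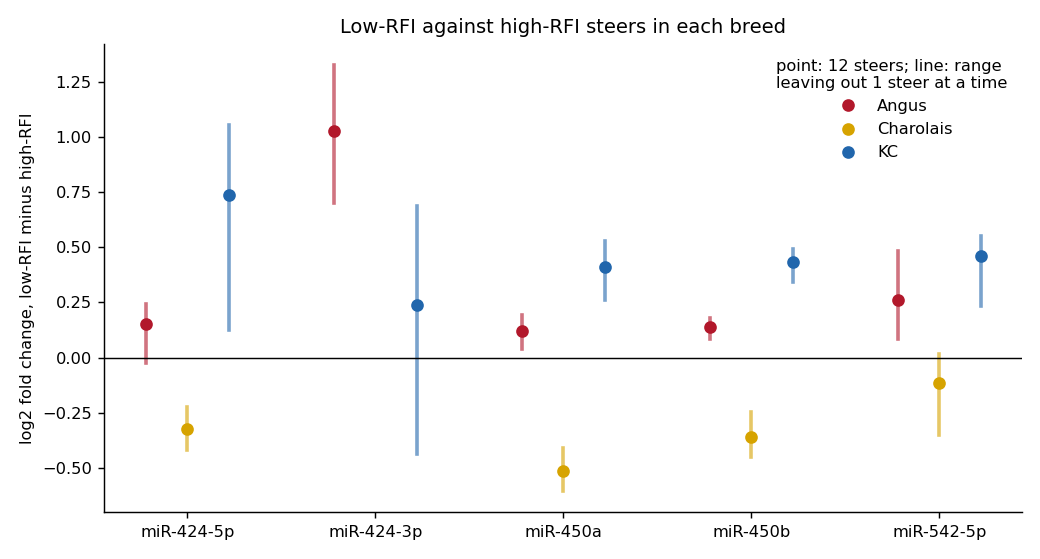
Log2 fold change of low-RFI against high-RFI steers in each breed (point, 12 steers) and its range when each steer is left out in turn (line). Charolais points lie below 0 and KC points above it, the KC lines of miR-424-5p and miR-424-3p are the longest, at 0.12 to 1.06 and -0.44 to 0.69, and miR-424-3p in Charolais did not pass the filter.

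Sire was examined as a source of variation by setting the largest half-sib family of each breed against the other steers. In KC, bta-miR-424-5p was lower in the 8 steers of the family than in the other 12 by a log2 fold change of -0.81 ± 0.31 (edgeR unadjusted p = 0.0164, adjusted p = 0.872), and bta-miR-450b by -0.38 ± 0.16 (unadjusted p = 0.0230, adjusted p = 0.872). Without KC low-RFI replicate 3, which belonged to the other steers, these were -0.48 and -0.33.

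After adjustment edgeR called 0 of 5 members in each breed, and over all miRNAs it called 0% in the Angus and Charolais comparisons and 0.248% in that of KC. The members with an unadjusted p below 0.05 numbered 0 in Angus, 0 in Charolais and 2 in KC. DESeq2 called none in any breed, with an adjusted p given for 5, 3 and 5 members.

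miRNAs related by seed or position were read in the same comparisons. The 6 other miRNAs with the seed of bta-miR-424-5p, which include bta-miR-195 and bta-miR-497, were all abundant enough to be tested, and none was called between any pair of breeds or by the study's rule in any RFI comparison. Their median log2 fold change was 0.07 for low-RFI against high-RFI in Charolais and 0.09 in KC. Of the 4 miRNAs of the X-linked cluster that holds bta-miR-106a, 2 were tested. Neither was called between breeds, and 1, bta-miR-363, was called in KC by the study's rule, at a log2 fold change of 0.84 for low-RFI against high-RFI, where 1.82% of 385 miRNAs were called. In Charolais the rule called 1.88% of 373 miRNAs and none of these lists' members.

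Markers of liver cell types were read beside the members, one miRNA at a time, because the sum of a list is mostly its most abundant miRNA (bta-miR-192 supplied 96.6% of the hepatocyte sum and bta-miR-143 98.9% of the mesenchymal or stellate sum). With breed means subtracted, the rho of each marker with the mean standardised level of the members over the 60 steers was above 0 for 5 of 6 mesenchymal or stellate miRNAs, from -0.148 for bta-miR-145 to 0.358 for the stellate bta-miR-199a-5p. bta-miR-199a-3p stood at 0.329 and bta-miR-199b at 0.295, while bta-miR-143 stood at 0.122 and bta-miR-214 at 0.109. Among the 3 hepatocyte miRNAs bta-miR-122 stood at -0.436, but bta-miR-192 at 0.104 and bta-miR-885 at 0.190. The stellate miR-199 miRNAs thus tended to be higher in steers with higher members, a tendency that was weaker for bta-miR-143 and bta-miR-214 and absent for bta-miR-145. bta-miR-122 tended to be lower, but the other 2 hepatocyte miRNAs did not, so the hepatocyte list had no common direction.

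The other lists lay closer to 0. Of 6 leukocyte miRNAs 5 were above 0, from -0.033 to 0.212, and of 5 biliary miRNAs 4 were, from -0.032 to 0.153. The endothelial bta-miR-126 strands lay between -0.075 and -0.040, the 3 erythroid miRNAs between -0.152 and -0.004 and the 3 tested muscle miRNAs between -0.095 and -0.031. Between breeds, the listed markers called were bta-miR-122, higher in Charolais than in Angus, and bta-miR-885 and the leukocyte bta-miR-155, both higher in KC than in Angus.

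The sums of some lists lay on the same side as the members between the RFI groups, and those of others on the opposite side. The mesenchymal or stellate sum lay opposite, at medians of 157700 CPM in low-RFI and 176800 in high-RFI KC steers. In Charolais it was 173600 and 166500, although the median log2 fold change of its 6 miRNAs was 0.05 in KC and -0.10 in Charolais. The endothelial sum also lay opposite, at 17130 against 18280 CPM in KC and 17820 against 16870 in Charolais. In KC the summed leukocyte miRNAs had a median of 4253 CPM in low-RFI (4073 to 5630) and 3937 in high-RFI steers (3628 to 4160), and 1 of 6, the myeloid bta-miR-223, was called as higher by the study's rule. In Charolais the summed biliary miRNAs were lower in low-RFI steers, at a median of 216 CPM (158 to 275) against 265 (183 to 333), with a median log2 fold change of -0.31 over the 5. The summed hepatocyte miRNAs there were also lower, at 245400 against 272500 CPM, although the median log2 fold change of the 3 miRNAs was 0.28. In KC both of these sums were higher in low-RFI steers, with overlapping ranges. The medians were 222 against 208 CPM for the biliary list and 246600 against 234500 for the hepatocyte list. The Charolais muscle list was higher in low-RFI steers, at a median of 50.3 CPM (27.4 to 59.7) against 32.1 (20.1 to 35.5) in high-RFI steers. Its bta-miR-133a was called as higher by the study's rule, applied here to edgeR quasi-likelihood p-values. The study's own sequencing result lists bta-miR-133a as lower in low-RFI Charolais steers, and its qPCR as higher. The Charolais leukocyte medians were 3974 and 3920 CPM.

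In Angus the erythroid list had a median of 11860 CPM in low-RFI (6665 to 12580) and 8178 in high-RFI steers (5768 to 13180), and none of its miRNAs was called. The part of cell composition in the differences of the members was not tested.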

How the data were processed

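Small RNA of liver from 60 steers was sequenced by the authors, and per the labels and the study's methods the reads were trimmed with cutadapt 1.16, reads matching other small RNA classes were removed, and miRDeep2 with Bowtie 1.1.1 counted known miRBase miRNAs on the UMD3.1 build. The deposited files hold raw counts per mature miRNA and precursor, without normalization. Here counts of a mature miRNA with several precursors were averaged and rounded to whole numbers for the tests; the counts from both miR-450a precursors were equal in 48 of 60 libraries. Members, lists and tests were chosen with earlier results of these data known. miRNAs with at least 1 CPM in 20 of 60 libraries (6 for comparisons within a breed) were tested with edgeR 4.0.16 (TMM, quasi-likelihood, R 4.3.3) and Benjamini-Hochberg adjustment over all miRNAs tested. DESeq2 1.42.0, limma 3.58.1 for values per sire, RLE scaling, no filter, summed precursors, thinned libraries, subsets of steers and leaving out steers were alternatives. Correlations used log2 CPM with a prior count of 0.5. Ratios were compared with two-sided permutation tests (scipy 1.17.1, 100000 resamples; exact for values per sire). Named miRNAs were the members, the other miRNAs of the locus, and the 3 non-members most and the 1 least correlated with them. The fits were tested on simulated data. Steers are separate animals, but many share a sire, so p-values treat half-sibs as independent. The sequencing pool of a library was not given in the labels, so it could not be compared with breed or RFI. Replicate numbers name steers only. Floors of 3 counts cover counting error only.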

Additional observations from a re-analysis of the deposited data

Results flagged for a closer look

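Of 45 sets of steers, one for each member in each of the 9 breed and RFI groups, 4 held a steer that stood far from the rest by Dixon's criterion, which chance meets in about 1 of 20. KC low-RFI replicate 3 was the highest of 6 for bta-miR-424-5p, at 74.88 CPM with the next steer at 21.08, for bta-miR-424-3p, at 5.188 with the next at 1.91, and for bta-miR-450a, at 57.76 with the next at 40.83. These 3 come from a single library. An Angus steer without an RFI label, replicate 6, was the highest of 8 for bta-miR-450b, at 260.0 CPM with the next at 162.2.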

How the results depend on the processing

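By the joint test of the breeds, the count of members called was 0 under the alternatives run, except 1 without KC low-RFI replicate 3 (bta-miR-424-3p). The bta-miR-424-5p difference of KC against Charolais was 0.70 with an adjusted p of 0.0378 in the 36 labelled steers, the one pairwise breed call among the alternatives, and reversed to -0.19 in the 24 unlabelled ones. The Angus count by the study's rule was 0 with all 36 labelled steers in one fit, and 0 to 1 when leaving out each steer; the adjusted count stayed at 0. With 1 value per sire, 1 of the 6 ratio comparisons passed, that of the miR-424 strands between KC and Angus, at 0.62 with an adjusted exact permutation p of 0.0207. The median rho among members was 0.346 over the 60 steers, 0.161 in Charolais, 0.547 in KC and 0.208 in the 24 unlabelled steers. The causes were not tested. No member passed in the half-sib comparisons under any alternative, and the median RFI fold changes in Charolais and KC kept their sign in each. Depth limits bta-miR-424-3p and bta-miR-542-5p, with medians of 6 and 8 counts. No paired analysis was possible because replicate numbers follow accession order and pair no steers.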
